A study of Mus musculus with 6 samples.

Results

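The genes described here are the secreted and membrane-bound metalloproteases of the ADAMTS and matrix metalloproteinase (MMP) families, the ADAMTS-like (ADAMTSL) proteins and the tissue inhibitors of metalloproteinases (TIMPs). They were taken by name: a row of the deposited count table was a member where its symbol was Adamts, Adamtsl, Mmp or Timp followed by its number, written in mouse style. Of 22274 genes in the table, 42 were members, with 14 in the ADAMTS group, 3 in the ADAMTSL group, 21 in the MMP group and 4 in the TIMP group. A further 9 genes of the same families stood in the table with their symbols in capitals. They fell outside the naming rule and are described apart, near the end.

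Messenger RNA had been sequenced from whole mouse testes at day 9 (the event from which days were counted is not labelled). In the 3 conditional knockout (cKO) libraries, floxed Dcaf2 (Dcaf2fl/fl) was deleted with Stra8-Cre, and the 3 Control libraries are labelled only as controls. Stra8-Cre acts in premeiotic germ cells, so the somatic cells of a cKO testis are not its target. DCAF2 is a substrate receptor of a cullin-RING ubiquitin ligase that acts in DNA replication and repair. Whether the libraries came from separate animals is not labelled. The p-values thus reflect only how far these libraries spread, which may be technical.

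Outside the cell, these families remodel the matrix on which testis cords and interstitial tissue rest. ADAMTS enzymes trim procollagens, cleave proteoglycans such as versican and aggrecan, and act on cartilage oligomeric matrix protein. ADAMTSL proteins share the ancillary domains of ADAMTS enzymes but lack the protease domain, and several bind fibrillin microfibrils. MMPs cleave collagens, gelatins and basement membrane proteins, and TIMPs block their active sites, with TIMP3 also blocking several ADAMTS enzymes. In the testis, the somatic Sertoli, peritubular, Leydig and other interstitial cells are usually named as the main sources of these transcripts.

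With TMM scaling over all tested genes, 51.9% of the members with enough reads were higher in the knockout testes. Scaled by total counts instead, 7 ADAMTS, 1 ADAMTSL, 3 MMP and 0 TIMP genes rose. Of all tested genes 1109 were then higher and 2424 lower. Scaling by Sertoli or stroma markers brought the median log2 fold changes of the 4 groups to between -0.15 and 0.12. The same scalings brought the median of all tested genes to -0.35 and -0.45. Of 42 members, 27 passed the filter on low counts, and of these 14 rose, 1 fell and 12 did not pass the test (edgeR quasi-likelihood test, Benjamini-Hochberg adjusted p under 0.05 over 14424 genes). Among all tested genes 11.1% were higher in the cKO and 13.9% lower, 25% in all. The median log2 fold change of the 27 tested members was 0.39, where that of all tested genes was 0.03. ADAMTS genes gave 8 increases among 12 tested, ADAMTSL genes 1 among 3, MMP genes 4 increases and 1 decrease among 9, and TIMP genes 1 increase among 3. Every one of the 27 tested members had at least 10 counts in each of the 6 libraries, so none passed the filter through 1 group alone. For 15 of them all 3 cKO libraries lay above all Control libraries, and for 1 below, where 22.5% and 22.1% of all tested genes were separated in these directions.

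**Figure D1:**
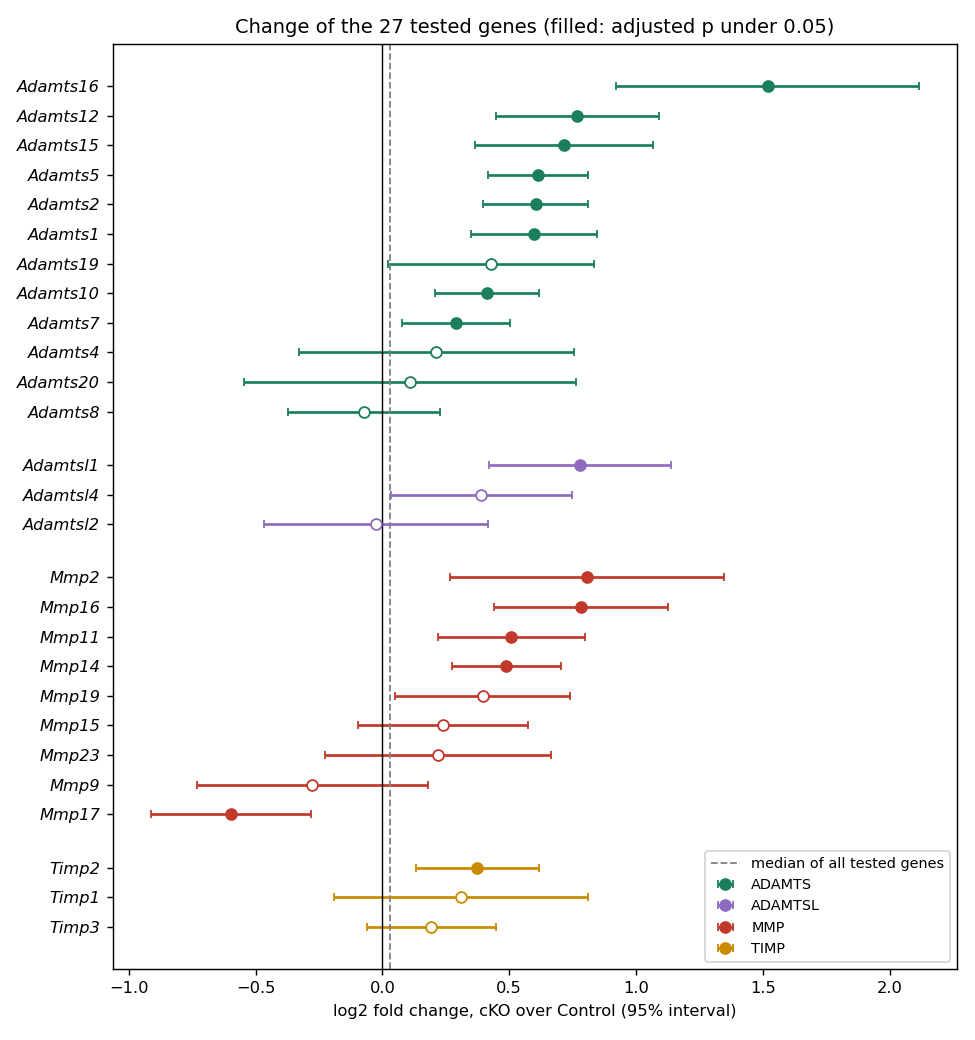
Log2 fold changes (x axis, cKO over Control) of the 27 tested genes, grouped by family, with 95% intervals and filled points for an adjusted p under 0.05. The points run from -0.60 for Mmp17 to 1.52 for Adamts16, and 23 of 27 lie above 0, where the dashed line marks the median of all tested genes at 0.03.

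Libraries held 15407007 to 18372964 counts. The transcript of Dcaf2, listed as Dtl, was at 41.7, 43.8 and 51.5 CPM (counts scaled to library size) in cKO testes and at 42.6, 50.3 and 77.4 CPM in Control testes (log2 change -0.31, standard error 0.202, edgeR adjusted p = 0.281). The groups overlapped for this gene, and a count over the whole gene cannot tell deleted from intact transcripts, so it is a weak check of the labels. Of 20 germ-cell genes, 18 were tested and 17 fell, with summed levels of 560 to 697 CPM in cKO and 1489 to 1948 CPM in Control testes. In bulk tissue, fewer cells of a type and less RNA per cell cannot be told apart.

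Among the enzymes that cleave hyaluronan-binding proteoglycans, 3 of 6 tested ADAMTS genes rose. Adamts5 (ENSMUSG00000022894), the main aggrecan-cleaving enzyme of mouse cartilage, was at 334, 332 and 352 CPM in cKO testes and at 234, 216 and 216 CPM in Control testes. The groups did not overlap, and the gene was 1.53-fold higher in the cKO (log2 change 0.61, standard error 0.0876, edgeR adjusted p = 0.00243). With a trend on transcript length removed, the difference was 0.28 and did not pass (adjusted p = 0.224). Adamts1 (ENSMUSG00000022893), a versican-cleaving enzyme, is the neighbouring protein-coding gene of Adamts5 on chromosome 16 in the RefSeq table of GRCm38.p6. It was at 88.7, 101 and 108 CPM in cKO testes and at 66.6, 70.6 and 59.5 CPM in Control testes. The groups did not overlap, and the gene rose by a similar factor of 1.51 (log2 change 0.60, standard error 0.11, edgeR adjusted p = 0.00624). Adamts15 (ENSMUSG00000033453) was at 17.8, 21.3 and 18.9 CPM in cKO testes and at 14.1, 10.5 and 10.5 CPM in Control testes. It rose 1.64-fold, and Control library 1 was the highest of its group (log2 change 0.72, standard error 0.155, edgeR adjusted p = 0.0119). It no longer passed without cKO library 2 (0.64, adjusted p = 0.0626) or Control library 3 (0.65, adjusted p = 0.0548).

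The other 3 proteoglycan-cleaving members did not pass the test. Adamts4 had 8.91 ± 2.08 CPM in cKO and 7.69 ± 1.91 CPM in Control testes (SD, n = 3 each) and differed by 0.21 on the log2 scale (95% interval -0.33 to 0.76). Adamts8, at 18.7 to 22.7 CPM in cKO and 18.8 to 24.0 CPM in Control testes, differed by -0.07 (interval -0.37 to 0.23). Adamts20 was near 2.63 CPM in cKO and 2.44 CPM in Control testes, at 0.11 (interval -0.54 to 0.76). The interval of Adamts8 lies below the estimate of Adamts5, whereas those of Adamts4 and Adamts20 include it.

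Adamts2 (ENSMUSG00000036545) encodes the enzyme that removes the N-terminal propeptide of fibrillar procollagens. It was at 249, 238 and 249 CPM in cKO testes and at 149, 162 and 173 CPM in Control testes. The groups did not overlap, and the gene rose 1.52-fold (log2 change 0.60, standard error 0.092, edgeR adjusted p = 0.00307).

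Both genes of the pair that cleaves cartilage oligomeric matrix protein rose. Adamts12 (ENSMUSG00000047497) was at 61.7, 58.5 and 54.3 CPM in cKO testes and at 26.7, 36.6 and 39.2 CPM in Control testes, 1.70-fold higher (log2 change 0.77, standard error 0.142, edgeR adjusted p = 0.00638). The lowest cKO library stood well above the highest Control library. Adamts7 (ENSMUSG00000032363) was at 50.5, 47.9 and 52.7 CPM in cKO testes and at 39.4, 44.5 and 39.7 CPM in Control testes, 1.22-fold higher (log2 change 0.29, standard error 0.0935, edgeR adjusted p = 0.0499). It lay at the threshold, and its sign turned with scaling by Sertoli (-0.10) or stroma markers (-0.19). It passed in 3 of 18 alternative settings, and without any 1 library other than Control library 2 its adjusted p was 0.0641 to 0.163.

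The largest change of the 27 belonged to Adamts16 (ENSMUSG00000049538), a protease gene whose disruption in rats has been linked with undescended testes and male infertility. It was at 24.5, 22.7 and 39.9 CPM in cKO testes and at 12.3, 6.91 and 11.1 CPM in Control testes. All cKO libraries were above all Control libraries, with cKO library 3 the highest and Control library 2 the lowest. The log2 change was 1.52, or 2.87-fold (standard error 0.264, interval 0.92 to 2.12, edgeR adjusted p = 0.00513), and 1.22 without cKO library 3. Adamts10 (ENSMUSG00000024299), which in humans is tied to fibrillin microfibrils through an inherited connective tissue disorder, was at 95.8, 106 and 104 CPM in cKO testes and at 81.0, 74.4 and 74.0 CPM in Control testes. It rose 1.33-fold without overlap between the groups (log2 change 0.41, standard error 0.091, edgeR adjusted p = 0.0127), but was at -0.06 with scaling by stroma markers. The Adamts10 call was lost without cKO library 2 or 3 or Control library 3, at 0.39, 0.40 and 0.39 (adjusted p = 0.0762, 0.0576 and 0.0608). Adamts19, whose substrates are little known, was at 12.7 to 14.4 CPM in cKO and 8.23 to 12.9 CPM in Control testes and did not pass (0.43, edgeR adjusted p = 0.111).

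Across the group, 8 of 12 tested ADAMTS genes rose and 0 fell with edgeR, also 0 at an unadjusted p under 0.05 and with DESeq2 or limma-voom, and the median was 0.51. The number that rose was 5 without cKO library 2 and 6 to 8 without any other library. Adamts13, the protease of von Willebrand factor, and Adamts18 had at most 7 counts in a library and were not tested.

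**Figure D2:**
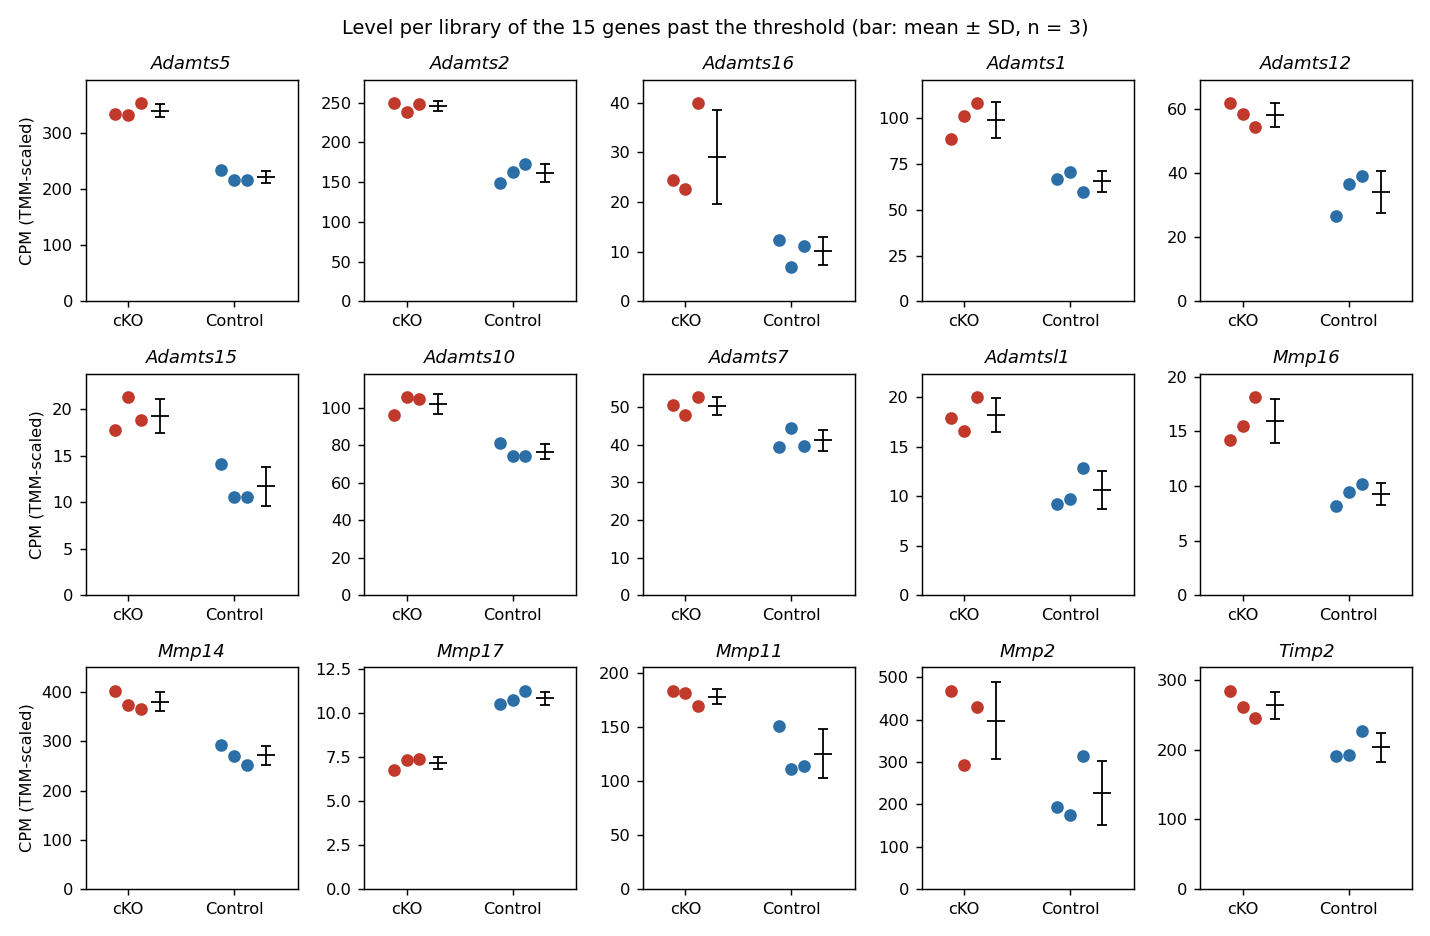
CPM (y axis, TMM-scaled) of the 15 genes past the threshold, with 1 point per library and the mean ± SD of 3 libraries beside each group. The cKO points lie above the Control points in 13 panels, below them in the panel of Mmp17, and among them in the panel of Mmp2.

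Of the ADAMTS-like genes, 1 of 3 rose. Adamtsl1 (ENSMUSG00000066113), whose product is a matrix glycoprotein also called punctin, was at 17.9, 16.6 and 20.0 CPM in cKO testes and at 9.23, 9.76 and 12.8 CPM in Control testes. The groups did not overlap, and the gene was 1.72-fold higher (log2 change 0.78, standard error 0.159, edgeR adjusted p = 0.00941). It passed without any 1 library, at 0.66 to 0.93. Adamtsl4, which in humans supports the fibrillin fibres that hold the lens, was at 13.3, 11.9 and 13.6 CPM in cKO testes and at 10.7, 8.08 and 10.8 CPM in Control testes. Its groups were apart, but its difference of 0.39 did not pass (edgeR adjusted p = 0.0992). Adamtsl2, which binds fibrillin and a latent TGF-beta binding protein, was at 11.4, 16.7 and 19.5 CPM in cKO testes and at 18.3, 15.9 and 14.3 CPM in Control testes. These values overlapped widely (-0.03, interval -0.47 to 0.41).

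Among the MMPs, Mmp2, Mmp11, Mmp14 and Mmp16 rose and Mmp17 fell. MMP14, MMP15 and MMP16 are membrane-bound MMPs that can cut proMMP2 to its active form, and at the cell surface TIMP2 links proMMP2 to MMP14. Mmp14 (ENSMUSG00000000957) was at 402, 374 and 366 CPM in cKO testes and at 292, 269 and 252 CPM in Control testes. The gene was 1.40-fold higher without overlap (log2 change 0.49, standard error 0.0954, edgeR adjusted p = 0.00798), and just missed the threshold without cKO library 1 (0.45, adjusted p = 0.0509). Mmp16 (ENSMUSG00000028226), at a far lower level, was at 14.2, 15.5 and 18.1 CPM in cKO testes and at 8.18, 9.48 and 10.2 CPM in Control testes. It rose 1.72-fold without overlap (log2 change 0.78, standard error 0.152, edgeR adjusted p = 0.00783), and passed without any 1 library.

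Mmp2 (ENSMUSG00000031740), the gelatinase of connective tissue cells, was at 467, 294 and 431 CPM in cKO testes and at 194, 174 and 314 CPM in Control testes. The groups overlapped, since cKO library 2 was below Control library 3, and this was the 1 gene among the 14 increases for which they did. The log2 change was 0.81, or 1.75-fold, with a wide interval of 0.27 to 1.35 (standard error 0.239, edgeR adjusted p = 0.0378). The call was lost without cKO library 1 (0.68, adjusted p = 0.139), cKO library 3 (0.74, adjusted p = 0.116) or Control library 2 (0.63, adjusted p = 0.0853), and without Control library 3 the value was 1.11. The Mmp2 call was also lost with total-count scaling (0.74, edgeR adjusted p = 0.0554). Mmp9 (ENSMUSG00000017737), the gelatinase of leukocytes and bone, was at 5.46, 3.88 and 4.32 CPM in cKO testes and at 4.91, 5.74 and 5.89 CPM in Control testes. Its groups overlapped, and its difference of -0.28 did not pass (interval -0.73 to 0.18, edgeR adjusted p = 0.34).

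Mmp11 (ENSMUSG00000000901), or stromelysin-3, which furin-like proteases activate inside the cell, was at 183, 181 and 170 CPM in cKO testes and at 151, 111 and 114 CPM in Control testes. Control library 1 was the nearest to the cKO libraries, which still lay above it. The gene rose 1.42-fold (log2 change 0.51, standard error 0.128, edgeR adjusted p = 0.0213). That call was lost without any 1 cKO library or Control library 3, at 0.44 to 0.54 (adjusted p = 0.059 to 0.0915). In the GENCODE M21 annotation 155 exon bases of Mmp11 (5.58%) lie opposite exons of Chchd10, a gene at 130 to 252 CPM that differed by 0.12 (edgeR adjusted p = 0.734). Whether reads were counted by strand is not given in the sources used here.

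The single member that fell was Mmp17 (ENSMUSG00000029436), which encodes an MMP held in the membrane by a glycolipid anchor. It was at 6.76, 7.34 and 7.37 CPM in cKO testes and at 10.5, 10.8 and 11.2 CPM in Control testes. The groups were apart, with little spread within either (log2 change -0.60, standard error 0.139, edgeR adjusted p = 0.0162), and the sign turned with scaling by germ-cell markers (0.92). The call was lost without any 1 cKO library or Control library 3, where the difference was -0.62 to -0.55 (adjusted p = 0.0504 to 0.0753). Other tested MMP genes gave no call. Mmp19, a soluble MMP, was at 8.34 to 8.91 CPM in cKO and 5.95 to 6.97 CPM in Control testes, apart but at an adjusted p of 0.087 with edgeR. In GENCODE M21 789 exon bases of Mmp19 (22.3%) lie opposite exons of Tmem198b. That gene was at 11.8 to 19.4 CPM and differed by 0.31 (edgeR adjusted p = 0.173). Mmp15, in the membrane-bound class of Mmp14, and Mmp23, a membrane-tethered MMP that lacks the hemopexin domain, differed by 0.24 and 0.22 (edgeR adjusted p = 0.263 and 0.445). With any 1 cKO library left out, 1 to 3 MMP genes passed in place of 5. Without Control library 2 or 3 the numbers were 4 and 3.

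The remaining 12 MMP members had too few reads to test, and 3 of them, Mmp1a, Mmp1b and Mmp20, were at 0 in all libraries. A count of 0 in a library still allows an expected count of up to about 3. The others, Mmp3, Mmp7, Mmp8, Mmp10, Mmp12, Mmp13, Mmp21, Mmp24 and Mmp25, had at most 16 counts in any library. Of these 12 genes, 9 lie side by side with Mmp27 on chromosome 9, in a run of 10 neighbouring protein-coding genes in the RefSeq table, which holds interstitial collagenases, stromelysins, matrilysin and the macrophage and enamel MMPs. The highest count of any gene of this run in any library was 10, for Mmp3 in cKO library 2, beside 3 and 1 in the other cKO libraries and 0, 4 and 0 in Control testes. Counts of this size give no comparison between the groups.

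Promoter sequences are shown for this run and for members with more reads. RefSeq promoter windows (GRCm38.p6) were at hand for 36 of the 51 family genes, those in capitals included. The 250 bases before the start were searched on both strands for TGANTCA, the AP-1 motif, for GGGCGG, the GC box, and for TATAAA, the TATA box, where N is any base. Of the 10 genes of the chromosome 9 run, 8 held the AP-1 motif, 7 a TATA box and 0 a GC box. Of the 20 tested family genes with a window, 0 held the AP-1 motif, 2 a TATA box and 17 a GC box. The 6 untested genes outside the run held the AP-1 motif in 0 cases, a TATA box in 1 and a GC box in 3. Among 32851 windows of all genes, not split by read level, 6.75% held the AP-1 motif, 12.4% a TATA box and 32.7% a GC box. These shares are per window, and some genes have more than 1. Counted so, the AP-1 motif was in 8 of 12 windows of the run, and the GC box in 17 of 21 windows of tested genes. For 33 of 39 family windows the last 25 bases lay in a GENCODE M21 transcript of the gene on the same strand. Neighbouring genes of 1 family arose by duplication and are not independent cases, and a match of letters is not shown to be a bound site.

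As examples, 3 windows of the chromosome 9 run are printed, and then 3 of genes that rose, all 5′ to 3′ on the strand of the gene, with the motif matches in capitals. Mmp3 (chr9:7445572-7445821, plus strand), Mmp13 (chr9:7272264-7272513, plus strand) and Mmp1a (chr9:7463891-7464140, plus strand) each hold 1 AP-1 match and 1 TATA box. Mmp14 (chr14:54431348-54431597, plus strand) and Mmp11 (chr10:75932503-75932752, minus strand) each hold 2 GC boxes, and Adamts1 (chr16:85803114-85803363, minus strand) holds 3 GC boxes and 1 TATA box. The GC boxes of Mmp14 are adjoining.
Mmp3: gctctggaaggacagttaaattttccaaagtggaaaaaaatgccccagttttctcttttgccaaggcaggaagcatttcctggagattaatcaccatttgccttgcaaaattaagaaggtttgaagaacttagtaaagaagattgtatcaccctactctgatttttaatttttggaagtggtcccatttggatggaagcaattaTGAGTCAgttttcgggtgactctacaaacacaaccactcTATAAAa
Mmp13: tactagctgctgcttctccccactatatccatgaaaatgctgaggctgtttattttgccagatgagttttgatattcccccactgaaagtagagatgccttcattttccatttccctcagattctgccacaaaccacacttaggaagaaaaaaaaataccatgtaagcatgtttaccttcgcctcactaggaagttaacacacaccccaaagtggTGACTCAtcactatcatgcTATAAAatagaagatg
Mmp1a: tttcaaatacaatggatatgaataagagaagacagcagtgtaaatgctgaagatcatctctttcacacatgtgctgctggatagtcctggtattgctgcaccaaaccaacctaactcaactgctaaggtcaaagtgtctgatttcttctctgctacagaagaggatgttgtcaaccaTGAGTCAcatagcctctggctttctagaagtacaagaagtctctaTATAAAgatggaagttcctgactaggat
Mmp14: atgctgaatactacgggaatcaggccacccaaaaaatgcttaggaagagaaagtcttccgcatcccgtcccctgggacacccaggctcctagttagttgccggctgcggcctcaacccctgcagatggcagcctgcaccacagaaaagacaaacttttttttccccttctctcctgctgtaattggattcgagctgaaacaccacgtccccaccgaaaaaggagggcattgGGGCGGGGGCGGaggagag
Mmp11: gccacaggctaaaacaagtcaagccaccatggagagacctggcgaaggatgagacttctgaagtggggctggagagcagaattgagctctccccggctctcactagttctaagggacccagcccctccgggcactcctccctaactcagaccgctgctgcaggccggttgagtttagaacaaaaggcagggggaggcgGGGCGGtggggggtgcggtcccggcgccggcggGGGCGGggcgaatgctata
Adamts1: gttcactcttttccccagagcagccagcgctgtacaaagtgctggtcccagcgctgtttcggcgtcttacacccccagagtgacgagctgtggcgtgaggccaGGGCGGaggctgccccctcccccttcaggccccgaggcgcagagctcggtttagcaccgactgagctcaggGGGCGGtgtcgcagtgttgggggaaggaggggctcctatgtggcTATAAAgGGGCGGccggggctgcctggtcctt

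Of the 4 inhibitors, 1 rose, Timp2, whose sign turned with scaling by Sertoli (-0.03) or stroma markers (-0.10). Timp2 (ENSMUSG00000017466) was at 284, 262 and 245 CPM in cKO testes and at 191, 192 and 227 CPM in Control testes. The groups were apart, with Control library 3 the nearest to the cKO libraries (log2 change 0.37, standard error 0.107, edgeR adjusted p = 0.033). The call was lost without cKO library 1 (0.32, adjusted p = 0.139), cKO library 2 (0.38, adjusted p = 0.112), cKO library 3 (0.43, adjusted p = 0.0638) or Control library 2 (0.32, adjusted p = 0.0696). Timp3 (ENSMUSG00000020044), which binds to the matrix and also blocks ADAMTS4 and ADAMTS5, was at 296, 301 and 323 CPM in cKO testes and at 231, 300 and 274 CPM in Control testes. These groups overlapped (0.19, interval -0.06 to 0.45, edgeR adjusted p = 0.235). Timp1 (ENSMUSG00000001131), a weak inhibitor of the membrane-bound MMPs, was at 8, 6.34 and 6.91 CPM in cKO testes and at 7.33, 4.35 and 5.41 CPM in Control testes. Control library 1 lay among the cKO libraries (0.31, edgeR adjusted p = 0.33). Timp4 (ENSMUSG00000030317) had 1, 1 and 5 counts in cKO libraries and 8, 4 and 6 in Control libraries, too few to test.

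Timp1, Timp3 and Timp4 lie inside the synapsin genes Syn1, Syn3 and Syn2 on the opposite strand in GENCODE M21. Timp1 shares no exon base with Syn1. Timp3 shares 1733 exon bases (21.3%) with Syn3, which was at only 0.962 to 2.06 CPM. Timp4 shares 90 with Syn2, which fell (-1.60, edgeR adjusted p = 0.00825, a gene named after its value was seen).

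Compared per transcript length, a few genes made up most of each group. The deposited FPKM values (fragments scaled to transcript length and depth) placed Mmp14 first among the MMPs, at 144 ± 7.28 FPKM in cKO and 107 ± 7.96 FPKM in Control testes (mean ± SD, n = 3 each). Mmp2 followed at 128 ± 30.8 FPKM in cKO and 77.2 ± 26.7 FPKM in Control testes, and Mmp11 at 77.8 ± 3.08 FPKM in cKO and 57.6 ± 11.3 FPKM in Control testes. Mmp14 was above Mmp2 in Control libraries 1 and 2 (116 and 106 against 66.45 and 57.5 FPKM) and below it in Control library 3 (100 against 108 FPKM). In cKO libraries 1, 2 and 3 Mmp14 was at 152, 140 and 140 FPKM and Mmp2 at 153, 93.8 and 139 FPKM. Their order was not tested. In the ADAMTS group Adamts2 (35.1 ± 0.964 FPKM in cKO and 24.1 ± 1.64 FPKM in Control testes) and Adamts5 (30.7 ± 1.05 FPKM in cKO and 21 ± 1.19 FPKM in Control testes) led. Among the members Adamts10 was next at 27.1 ± 1.26 FPKM in cKO and 20.7 ± 1.1 FPKM in Control testes, level with Adamts5 in the Control libraries. Adamts9, outside the naming rule and so outside this order, was at 27.6 ± 0.827 FPKM in cKO and 19.4 ± 1.23 FPKM in Control testes. The inhibitor level was nearly all Timp2 and Timp3, close to each other at 69.9 ± 5.18 and 63.4 ± 2.88 FPKM in cKO and at 56.5 ± 6.65 and 58.0 ± 6.88 FPKM in Control testes. Timp1 supplied 4.24 to 7.80% of the summed TIMP level of a library.

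Summed over its group, the MMP level was 419, 344 and 388 FPKM in cKO testes and 286, 236 and 293 FPKM in Control testes, without overlap. The TIMP sum was 146, 138 and 140 FPKM in cKO testes and 113, 121 and 131 FPKM in Control testes, also apart. The ratio of MMP to TIMP sums was 2.86, 2.49 and 2.77 in cKO testes and 2.54, 1.95 and 2.24 in Control testes, so the groups overlapped for the ratio. The ADAMTS sum was 145, 145 and 155 FPKM in cKO testes and 106, 105 and 108 FPKM in Control testes, while the ADAMTSL sum overlapped, at 8.69 to 11.2 FPKM in cKO and 7.74 to 9.28 FPKM in Control testes. These sums leave out the family genes with symbols in capitals, Adamts9 among them. They are dominated by their most abundant members and were not tested. The FPKM means moved in the direction of the count-based change for all 15 genes that passed.

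**Figure D3:**
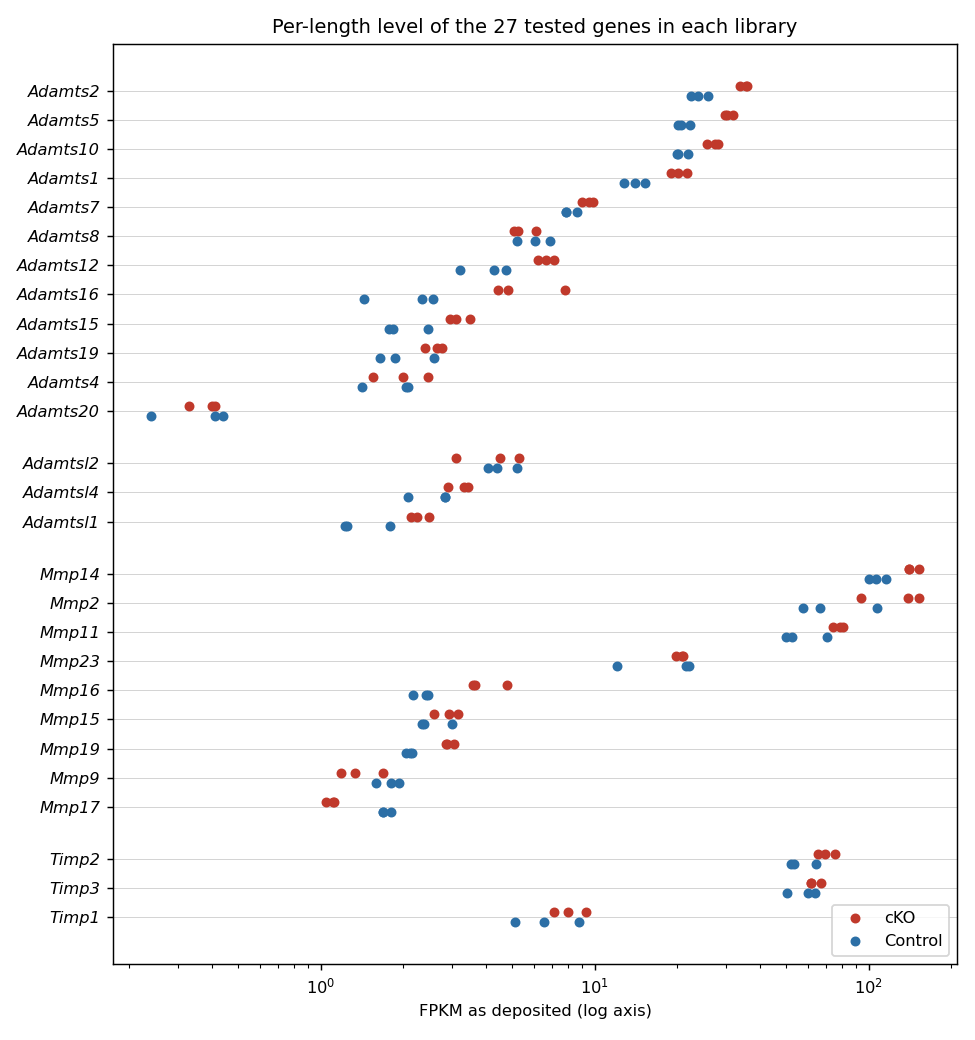
Deposited FPKM (x axis, log scale) of the 27 tested genes in each library, ordered by level within each family, with cKO points above Control points. Mmp14, Mmp2 and Mmp11 lead the MMPs, and the 3 cKO values of Mmp14 lie between 140 and 152 FPKM, above the Control values of 100 to 116 FPKM.

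Markers of the somatic cells that could hold these transcripts rose to differing degrees, to be read against the 11.1% of all tested genes that rose. Of 13 interstitial stroma markers 7 rose (summed level 11749 to 12110 CPM in cKO and 7639 to 9211 CPM in Control testes, median log2 fold change 0.43). Of 20 Sertoli cell markers 9 rose (7516 to 8505 CPM in cKO and 5444 to 7658 CPM in Control testes, median 0.39). Of 12 Leydig cell markers 10 were tested and 3 rose, Prlr, Hsd17b3 and Lhcgr, with sums of 1117 to 1156 CPM in cKO and 494 to 990 CPM in Control testes (median 0.68), and Cyp2a5 was at 0 in all libraries. Control library 1 carried the highest Control sums for Sertoli and Leydig markers, and for the Leydig enzyme gene Cyp17a1 it had 200 CPM beside 32.9 and 20.2 CPM in Control libraries 2 and 3. Of 12 endothelial markers 5 rose, Cdh5, Kdr, Pecam1, Tie1 and Vwf (411 to 438 CPM in cKO and 301 to 338 CPM in Control testes, median 0.30). Of 14 macrophage and leukocyte markers 2 rose, Mrc1 and Cx3cr1, or 14.3%, near the share of all genes (179 to 226 CPM in cKO and 128 to 169 CPM in Control testes, median 0.33). Of 12 peritubular myoid markers 1 rose, Smtn, or 8.33%, below that share. Their sums were 2002 to 2088 CPM in cKO and 1819 to 1984 CPM in Control testes (median 0.22, with 7 of 12 above 0). Contractile genes that did not pass lay on both sides of 0. Acta2, Tagln, Cnn1 and Actg2 were at -0.15, -0.18, -0.28 and -0.30, and Myh11, Mylk and Lmod1 at 0.34, 0.29 and 0.20. Of 7 erythroid markers 5 were tested, and edgeR called 0, with 0 at an unadjusted p under 0.05 (228 to 436 CPM in cKO and 167 to 659 CPM in Control testes, median -0.21). Which cells held the ADAMTS, MMP and TIMP transcripts, and the part of cell numbers in their change, was not tested.

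Set level by these markers, most members no longer passed. Standard errors changed as well as log2 changes. Adamts5 was at 0.24 (standard error 0.173) with Sertoli and 0.14 (standard error 0.134) with stroma markers, beside 0.61 (0.0876) in the main fit. For Adamts16 the standard errors were 0.277 and 0.226, beside 0.264. Scaled by the Sertoli cell markers, which moved the median of all genes to -0.35, 1 ADAMTS gene rose, Adamts16, and 1 MMP gene fell, Mmp17, and 0 ADAMTSL and 0 TIMP genes passed, also 0 at an unadjusted p. Of all genes 0.18% were then higher and 26.6% lower. Adamts16 was at 1.18 (edgeR adjusted p = 0.0123) and Mmp17 at -0.99 (adjusted p = 0.00929). Scaled by the interstitial stroma markers (median of all genes -0.45, with 0.305% higher and 49.3% lower), Adamts16 was at 1.06 (edgeR adjusted p = 0.00303) and Mmp17 at -1.07 (adjusted p = 0.00049). Adamts8 and Mmp9 were then called lower too. Scaled by the germ-cell markers, which had fallen, the median of all genes was 1.54, 93.3% of genes were higher and 0.589% lower, and all 27 members were higher. Mmp17 then turned to 0.92, below that median, and Adamts16 was at 2.97. The directions given above are therefore relative to the TMM scaling over all tested genes.

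A trend on transcript length was removed from each library as an alternative chosen after seeing the data (14.8% of genes higher and 18.9% lower). Adamts7 then lost its call (0.16, edgeR adjusted p = 0.136), as did Adamts5, and Timp1 passed (0.54, adjusted p = 0.0418). Counts of increases were then 6 ADAMTS, 1 ADAMTSL, 4 MMP and 2 TIMP genes.

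**Figure D4:**
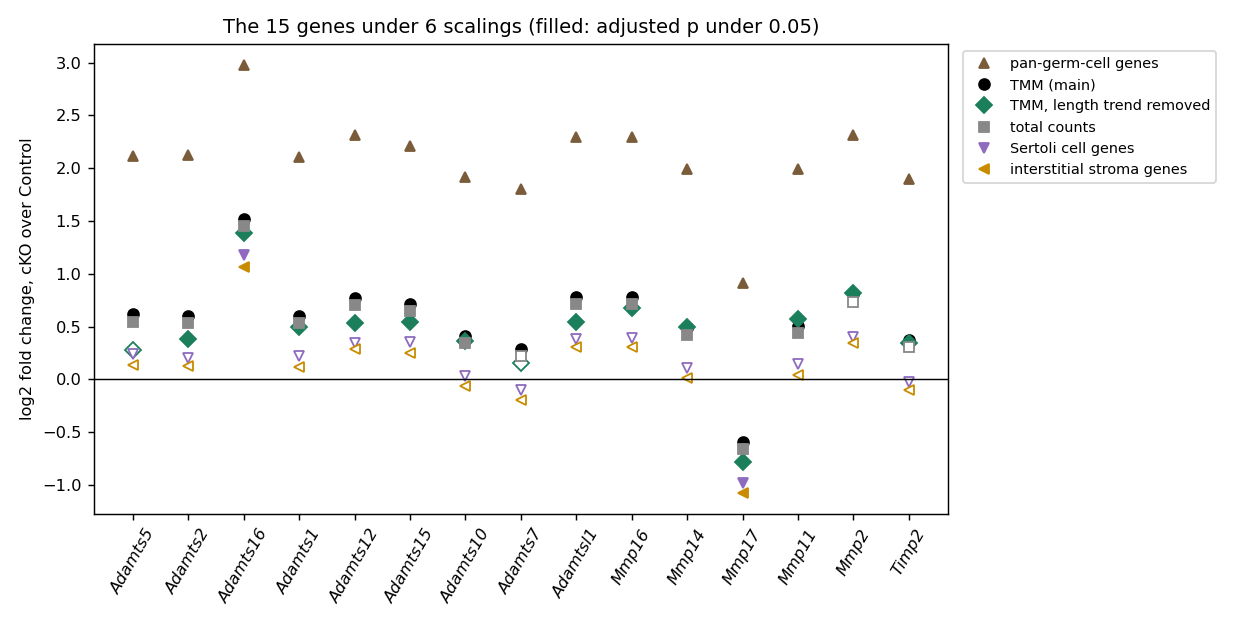
Log2 fold change (y axis, cKO over Control) of the 15 genes under 6 scalings, filled where the adjusted p was under 0.05. Scaled by Sertoli cell or interstitial stroma markers, only Adamts16 (1.18 and 1.06) and Mmp17 (-0.99 and -1.07) stay filled, and scaled by germ-cell markers all 15 lie above 0.

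Of 25 matrix substrates 11 rose and 1 fell, or 44% and 4%, beside 11.1% and 13.9% of all tested genes (median 0.38, beside 0.03). Nid1, a basement membrane linker, rose, at 573, 554 and 573 CPM in cKO testes and 324, 411 and 410 CPM in Control testes (log2 fold change 0.57, edgeR adjusted p = 0.00812). Ltbp3, a latent TGF-beta binding protein gene, rose by 0.54 (edgeR adjusted p = 0.00866). Of the fibrillar procollagen genes in the list, Col1a1, Col1a2 and Col3a1 rose by 0.43, 0.48 and 0.47 (edgeR adjusted p = 0.0228, 0.00875 and 0.0263) and are also in the stroma list, while Col2a1 was at -0.88 and did not pass (adjusted p = 0.0623). Comp, which encodes the substrate shared by ADAMTS7 and ADAMTS12, was at -0.96 and did not pass either (edgeR adjusted p = 0.152). The versican gene Vcan was at 0.68 and the aggrecan gene Acan at 0.15, also without passing (edgeR adjusted p = 0.0558 and 0.667). In all, 22 of the 25 substrates were above 0. The substrate that fell was Ncan, the neurocan gene (-1.38, edgeR adjusted p = 0.0383). These genes, Nid1 and Ltbp3 apart, were named after their values were seen. Of 19 tested genes of protease activation and clearance among 21, 4 rose and 0 fell, or 21.1% and 0% (median 0.28). At an unadjusted edgeR p under 0.05, 9 were higher and 2 lower, beside 2756 and 2880 of all 14424 tested genes. Lrp1, the endocytic receptor that clears MMPs, ADAMTS enzymes and TIMPs, was at 750, 733 and 746 CPM in cKO testes and at 382, 528 and 459 CPM in Control testes. It rose by 0.70 (edgeR adjusted p = 0.0052), and Spock2, a testican gene, by 0.58 (adjusted p = 0.00539). The other increases were Serpine2 (0.36) and the proprotein convertase gene Pcsk5 (0.36).

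Of the 9 family genes with symbols in capitals, 8 were tested, with log2 changes of 0.11 to 0.67, and 3 rose: Adamts9, a versican-cleaving enzyme gene, from the same subgroup as Adamts20, at 214, 202 and 212 CPM in cKO testes and 120, 157 and 124 CPM in Control testes (0.65, edgeR adjusted p = 0.00578); Adamts6 (0.60, adjusted p = 0.0192); and Mmp28, or epilysin, which is well known in testis (0.67, adjusted p = 0.0489). Adamts3, Adamts14, Adamts17, Adamtsl3 and Adamtsl5 did not pass, at 0.11 to 0.52, and Mmp27 had at most 3 counts. With these genes counted in, 10 of 17 ADAMTS, 1 of 5 ADAMTSL, 5 of 10 MMP and 1 of 3 TIMP genes rose. Adamts9 shares 1381 exon bases with A730049H05Rik on the opposite strand (9.18%), a gene at 3.23 to 7.44 CPM.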

How the data were processed

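Whole-testis messenger RNA was measured in 3 cKO and 3 Control libraries. The deposited table gave, per the file headers, a count and an FPKM for every gene in each library. StringTie 1.3.1 and RSEM are named, with no role, per the submitters' processing notes. The aligner, build, annotation and strand setting are not given in the sources. The deposited counts are whole numbers and were taken as estimated counts that had been rounded by the authors, since a zero count stood beside a positive FPKM for 3 to 21 genes of each library; no rounding was added. The deposited FPKM values, scaled by the authors to length and depth, served to compare levels between genes and to describe group levels and sums; no test was run on them.

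Families were found by the deposited symbol. Other genes were named by Ensembl ID through the reference gene names (22219 of 22274). Genes kept by filterByExpr (minimum count 10) were scaled by TMM and tested with the quasi-likelihood test of edgeR 4.0.16 (R 4.3.3), no covariates, Benjamini-Hochberg threshold 0.05. SE is the log2 fold change over the square root of F. CPM values use the TMM-scaled library sizes. The procedure was tested on simulated data. Counts of 3 against 3 libraries limit precision, and the bound of about 3 on an expected count covers counting error only.

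Members, lists and alternatives were chosen with earlier results of these data known. By rule, each member past the threshold, the TIMP genes, Mmp2, Mmp9 and Mmp14 are given per library, and the 2 genes of smallest p from each related list are named. Alternatives were DESeq2 1.42.0, limma-voom (limma 3.58.1), other scalings and filters, the replicate number as a block, and each library left out. A length trend (lowess, span 0.3, GENCODE M21 lengths), stroma scaling and inclusion of symbols in capitals were added after seeing the data. Pairing by replicate number was checked by correlating deviations from group means.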

Additional observations from a re-analysis of the deposited data

How the results depend on the processing

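With edgeR's TMM fit, 8 ADAMTS, 1 ADAMTSL, 5 MMP, 1 TIMP and 3607 of all genes passed. These numbers stayed within 1.5 times with DESeq2, limma-voom, RLE or upper-quartile scaling and either filter. Total-count scaling and the replicate block each gave 0 TIMP genes, with 1 at an unadjusted p under 0.05. Removing the length trend gave 2 TIMP genes. Scaling by germ-cell markers gave 3 ADAMTSL, 9 MMP, 3 TIMP and 13543 of all genes. Scaling by Sertoli markers gave 1 ADAMTS, 0 ADAMTSL, 1 MMP and 0 TIMP genes, and by stroma markers 2, 0, 2 and 0, and 7148 of all genes. At an unadjusted p under 0.05 these counts of 0 were 0 ADAMTSL and 0 TIMP genes with Sertoli markers, and 1 and 0 with stroma markers. Leaving out 1 library gave 5 to 8 ADAMTS, 1 ADAMTSL, 1 to 5 MMP, 0 to 1 TIMP and 1355 to 5255 of all genes.

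Among the 18 named genes, directions turned only with scaling by markers. Directions of the other tested members were not compared over the settings. With germ-cell markers Mmp17 was at 0.92 and Mmp9 at 1.24. With Sertoli markers Adamts7 was at -0.10, Timp1 at -0.034, Timp2 at -0.026 and Timp3 at -0.21. With stroma markers Adamts10 was at -0.062, Adamts7 at -0.19, Timp1 at -0.15, Timp2 at -0.10 and Timp3 at -0.30. The markers themselves had moved, so this follows from the scaling. Over 18 named genes, 250 of the 324 values under other settings kept direction and side of the threshold.

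No pairing by replicate number was seen: same-numbered libraries' deviations correlated at -0.08, -0.10 and 0.09. With 3 libraries in each group, such correlations cannot exclude a pairing. No library correlated best with its own number. With the replicate number as a block, 2822 genes passed, with 7 ADAMTS, 1 ADAMTSL, 5 MMP and 0 TIMP genes.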

Other observations

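Among other metzincins, a list of related metalloproteases outside the 4 families, 11 of 15 genes were tested, with 4 higher and 1 lower. These were 36.4% and 9.09%, beside 11.1% and 13.9% of all tested genes, and the median was 0.45, beside 0.03. Adam12, a membrane-bound metalloprotease gene of mesenchymal cells, was at 115, 113 and 107 CPM in cKO testes and at 52.5, 74.3 and 62.4 CPM in Control testes (log2 fold change 0.82, edgeR adjusted p = 0.00336). Adam15 was lower without overlap, at 27.4, 27.2 and 26.1 CPM in cKO testes and 37.1, 40.7 and 44.0 CPM in Control testes (-0.59, edgeR adjusted p = 0.00443). The procollagen C-proteinase gene Bmp1 was at 0.42, its relative Tll2 at 1.10 and Adam9 at 0.45 (edgeR adjusted p = 0.0136, 0.0207 and 0.0171), 3 genes named after their values were seen. The summed level of the list was 840 to 877 CPM in cKO and 605 to 720 CPM in Control testes.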
